A study of Rattus norvegicus with 60 samples.

Results

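The rat major histocompatibility complex (MHC, named RT1 in the rat) and the genes that load peptides on its products were followed in knee joint tissue and popliteal lymph nodes of rats with haemophilia A. Probe sets annotated with exactly 1 gene symbol were taken where the symbol began with RT1- or named 1 of 17 genes of antigen processing, which gave 56 genes of the 18166 genes that the array annotation names singly. They comprised 29 class I chains, 10 class II chains (the RT1-B, RT1-D and RT1-H symbols), 6 partners and loading factors of class I (B2m, Tap1, Tap2, Tapbp, Tapbpl and Erap1), 5 immunoproteasome genes (Psmb8, Psmb9, Psmb10, Psme1 and Psme2), 3 class II processing genes (Cd74, Ctss and Ifi30), the regulators Ciita and Nlrc5, and Cd1d1. Each gene had 1 probe set, and all 56 passed, since no filter on low values was used. The classical class I genes RT1-A1, RT1-A2 and RT1-A3 share a probe set that carries several symbols, and this and the other two RT1 probe sets of that kind were not analysed here.

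All 20 rats had haemophilia A, a bleeding disorder caused by lack of coagulation factor VIII, so every group including the shams shares that defect, and its allele and the animals' age are not given in the labels. In 11 of them 1 knee was made to bleed and the other 9 underwent a sham procedure, and all were killed 24 h later. Each bled rat gave tissue of both knees and the popliteal nodes of both sides (11 arrays in each of 4 groups), and the sham rats gave 7 knees and 9 nodes, each from 1 side only. How the bleed and the sham procedure were made is not described in the labels. Bled samples came from the left and all others from the right, so side and bleed cannot be told apart.

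MHC class I molecules sit on nearly all nucleated cells as a heavy chain paired with beta-2-microglobulin, and show T cells and natural killer cells peptides that the proteasome has cut and the TAP transporter has carried into the endoplasmic reticulum. MHC class II molecules are pairs of an alpha and a beta chain made mainly by dendritic cells, B cells and activated macrophages, and show CD4 T cells peptides from endosomes, where the invariant chain Cd74 is replaced by peptide with the help of RT1-DM, the rat form of the peptide exchange factor DM. Class II transcription depends on the coactivator Ciita, which acts through factors bound to the X and Y boxes of the promoters, and Nlrc5 is its relative for class I. Interferon gamma is the best known inducer of both pathways.

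Values are RMA log2 values, on which 1 unit is a doubling, and a gene was called at an adjusted p under 0.05 (limma, Benjamini-Hochberg over all 36685 probe sets). Array medians lay between 5.64 and 5.94, and the median probe set mean was 5.70 in the knee and 5.75 in the node. Of the 29 class I chains, 16 had a knee mean at or below that median, so that a difference in them may lie below what the array can resolve, whereas 8 of the 10 class II chains lay above it. Several class I and class II chains belong to groups of closely related copies, and which copy a probe set measures is uncertain for these. The sham knee array of rat C5 and the sham node arrays of C2 and C9 stood apart from their groups, with a median correlation over all probe sets of 0.9569, 0.9795 and 0.9612 with the other arrays of the group (next lowest 0.9744 in the sham knee and 0.9878 in the sham node), and calls that rest on them are given with and without them. In whole tissue, fewer cells of a type and less RNA per cell cannot be told apart.

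The promoters are shown because the class II chains share a sequence that the regulator Ciita works through. RefSeq (build GRCr8) held a promoter for 50 of the 56 genes, and the 250 bases before each gene start were searched on both strands for short exact motifs. The windows below run from base 150 to base 31 before the start of 6 class II genes, 5' to 3' on the strand of the gene, with the Y box core TGATTGG and the X box core AGCAAC in capitals.
RT1-DMa (chr20:4712366-4712485, minus strand): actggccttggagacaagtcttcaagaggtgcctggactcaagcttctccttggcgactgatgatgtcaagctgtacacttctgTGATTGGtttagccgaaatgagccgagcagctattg
RT1-Da (chr20:4515265-4515384, plus strand): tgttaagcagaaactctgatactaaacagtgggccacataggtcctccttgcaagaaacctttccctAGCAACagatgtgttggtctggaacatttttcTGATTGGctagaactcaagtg
RT1-Ba (chr20:4576907-4577026, plus strand): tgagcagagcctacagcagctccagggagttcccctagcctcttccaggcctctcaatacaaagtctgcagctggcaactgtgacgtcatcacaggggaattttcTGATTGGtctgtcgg
RT1-Bb (chr20:4604149-4604268, minus strand): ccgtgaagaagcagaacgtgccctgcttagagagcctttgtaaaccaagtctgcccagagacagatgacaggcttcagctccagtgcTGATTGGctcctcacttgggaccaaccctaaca
RT1-DOb (chr20:4627554-4627673, minus strand): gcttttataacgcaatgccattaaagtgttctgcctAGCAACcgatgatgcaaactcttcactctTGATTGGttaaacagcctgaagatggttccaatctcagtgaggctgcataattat
RT1-Ha (chr20:4772172-4772291, minus strand): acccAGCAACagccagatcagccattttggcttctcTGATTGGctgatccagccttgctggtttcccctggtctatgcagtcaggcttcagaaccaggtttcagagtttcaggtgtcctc

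All 9 class II chains with a promoter held TGATTGG, each on the strand of the gene, between 45 (RT1-Ba) and 119 bases (RT1-Db2) before the start, against 6.71% of 27457 rat promoters on either strand and 3.42% on the strand of the gene. In 6 of the 9 (RT1-DOa, RT1-DOb, RT1-Da, RT1-Db1, RT1-Db2 and RT1-Ha) AGCAAC stood 29 to 32 bases further upstream, whereas RT1-Ba, RT1-Bb and RT1-DMa held no exact copy of these letters. AGCAAC was in 12.2% of all promoters. Among the 27 class I chains with a promoter, 11 held TGATTGG, 8 of them on the opposite strand. Cd74 held AGCAAC without TGATTGG, and Ctss and Ifi30 held neither. Matches of different motifs did not overlap, and a match is a description of the sequence only.

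Windows of 120 bases from 4 class I pathway genes follow, shown because their motifs are those that class I regulation is known for, with 2 motifs in capitals: the interferon-stimulated repeat GAAANNGAAA, where N is any base (B2m, Tap1, RT1-S3), and the enhancer A repeat GGGGATTCC (RT1-CE16). The windows of B2m and Tap1 run from base 180 to base 61 before the start and those of RT1-S3 and RT1-CE16 from base 220 to base 101. In Tap1 and RT1-S3 the repeat lies on the opposite strand, so its complement is printed.
B2m (chr3:129549150-129549269, plus strand): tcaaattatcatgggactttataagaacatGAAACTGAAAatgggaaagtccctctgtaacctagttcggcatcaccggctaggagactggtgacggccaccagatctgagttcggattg
Tap1 (chr20:4668604-4668723, minus strand): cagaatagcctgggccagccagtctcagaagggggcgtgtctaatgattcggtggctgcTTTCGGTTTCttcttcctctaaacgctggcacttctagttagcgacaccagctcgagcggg
RT1-S3 (chr20:2675308-2675427, plus strand): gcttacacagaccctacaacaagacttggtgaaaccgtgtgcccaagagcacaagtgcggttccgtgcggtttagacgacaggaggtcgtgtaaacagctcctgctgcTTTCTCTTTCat
RT1-CE16 (chr20:3265544-3265663, minus strand): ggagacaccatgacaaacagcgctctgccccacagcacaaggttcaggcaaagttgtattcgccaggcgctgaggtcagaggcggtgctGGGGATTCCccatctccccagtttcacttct

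GAAANNGAAA was in the promoters of 4 of 5 class I partners (B2m, Tap1, Tap2 and Tapbp), 2 of 5 immunoproteasome genes (Psmb10 and Psme2), 3 of 27 class I chains (RT1-N3, RT1-S2 and RT1-S3) and Ctss, and in no class II chain, against 3.29% of all promoters. GGGGATTCC was in 6 class I chains (RT1-CE3, RT1-CE4, RT1-CE10, RT1-CE11, RT1-CE13 and RT1-CE16) and no other member, against 0.251% of all promoters. Of 2 further motifs searched, the S box core AGGACCT was in 7 of 27 class I chains (25.9%) and 2 of 9 class II chains (22.2%), against 4.48% of all promoters. The gamma-activated site TTCNNNGAA was in 3 of the 50 member promoters (6%), against 7.52% of all promoters.

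**Figure D1:**
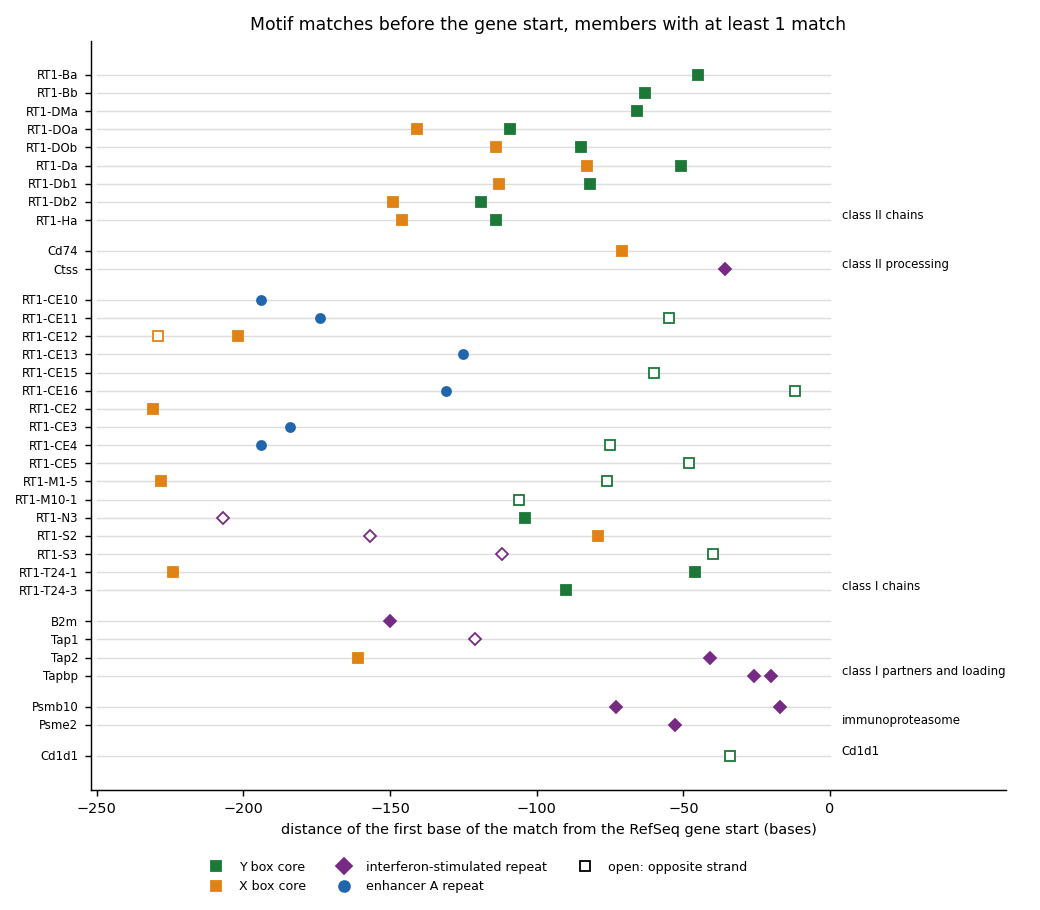
Positions of 4 motifs in the promoters of the members that held at least 1, as the distance in bases of the first base of the match from the RefSeq gene start (0); filled symbols are on the strand of the gene and open ones on the opposite strand. The Y box core lies 45 to 119 bases before the start of the 9 class II chains, with the X box core 29 to 32 bases upstream of it in 6.

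In sham rats most genes of the class II pathway and of class I loading were higher in the node than in the knee. All 10 class II chains had node arrays that lay above every knee array, as did Ciita, Nlrc5, Cd74 and Ifi30. Over all probe sets 11.7% lay wholly above in the node and 8.96% wholly below, and among the 56 members 24 lay above and none below. The gap between the sham means was 4.45 for RT1-DOb, the beta chain of the DM inhibitor DO, 4.31 for RT1-Db2, 3.52 for Ciita and 1.24 for RT1-DMa. Among the class I genes 4 of 6 partners (Tap1 1.60, Tapbp 1.38) and 4 of 5 immunoproteasome genes (Psmb8 1.83) lay wholly above in the node too. The class I chains were closer in level, with a median gap of -0.07 and 2 of 29 above without overlap, RT1-CE4 (2.29) and RT1-M3-1 (1.38), the rat form of the class I molecule that presents formylated peptides. Whether the tissues were normalized together is not given in the sources used here, so these gaps carry no test. The B cell markers (6 genes) averaged 10.61 to 11.27 per sham node array and 5.94 to 6.39 per sham knee array, and their part in the gap was not tested.

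The comparison of both knees of the bled rats asked how the bleed changes antigen presentation in the joint. Of the 10 class II chains 8 rose, none fell and 2 were not called. Of the 29 class I chains 9 fell, none rose and 20 were not called, and of the 6 class I partners 5 fell and 1, Tap1, was not called. Of the 27 calls 26 held without any 1 array and all 27 in every other setting that tested them. The setting that left out dim probe sets did not test RT1-CE11 and RT1-Db2. Over the 56 genes 12 were higher and 15 lower, beside 19.5% of all probe sets called higher and 15.2% called lower. The median difference was 0.60 for the class II chains and -0.20 for the class I chains, beside 0.00 for all probe sets.

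The peptide exchange factor DM led the class II chains. RT1-DMa, its alpha chain, ran from 10.87 over a median of 11.22 to 11.61 in the bled knees, from 9.37 over 9.58 to 10.05 in the contralateral knees and from 9.29 over 9.60 to 9.89 in the sham knees. Every bled knee lay above every other knee. The difference from the contralateral knee was 1.54 ± 0.10 SE (95% interval 1.34 to 1.73, 2.90-fold, adjusted p = 5.02e-14 by limma), higher in 11 of 11 rats. RT1-DMb, its beta chain, ran from 10.66 over 11.28 to 11.57 against 9.39 over 9.58 to 10.10 contralaterally, again without overlap, a difference of 1.51 ± 0.11 (adjusted p = 1.24e-12).

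The chains that present peptide moved less. RT1-Da, the alpha chain of the rat DR-like molecule, ran from 11.16 over 12.13 to 12.49 in the bled and from 11.19 over 11.43 to 11.65 in the contralateral knees. The groups overlapped through rat K2 alone, whose bled knee was the lowest of all 22, and the bled side was higher in the other 10 rats (0.68 ± 0.13, 95% interval 0.42 to 0.95, adjusted p = 6.9e-05). RT1-Ba and RT1-Bb, the alpha and beta chains of the DQ-like molecule, rose by 0.60 ± 0.14 (8.59 over 9.80 to 10.39 against 8.94 over 9.15 to 9.49) and 0.64 ± 0.17 (10.13 over 11.13 to 11.79 against 9.92 over 10.40 to 10.94), each in 10 of 11 rats and with overlap. RT1-Db1, a beta chain of the DR-like molecule, rose by 0.54 ± 0.15 (7.74 over 8.75 to 9.30 against 7.67 over 8.23 to 8.56) and the dim RT1-Db2 by 0.37 ± 0.14 (adjusted p = 0.0336), a call that did not hold in 7 of the fits that left out a single array (adjusted p up to 0.071).

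The chains of DO, which restrains DM, lay above the median probe set of the knee (5.70) but well below the DM chains. RT1-DOb ran from 6.72 over 7.19 to 7.61 in the bled and from 6.14 over 6.49 to 6.98 in the contralateral knees, and rose by 0.59 ± 0.12 (adjusted p = 0.000134). RT1-DOa (5.99 over 6.98 to 7.42 against 6.10 over 6.49 to 6.87) differed by 0.38 ± 0.16 and was not called (adjusted p = 0.0692), nor was RT1-Ha (0.21 ± 0.10, adjusted p = 0.123). RT1-DOa was called without the bled knee of K2 (0.47, adjusted p = 0.0131), of K3 (0.43, adjusted p = 0.0419) or of K11 (0.44, adjusted p = 0.034), and in 4 of 10 other settings with a lowest adjusted p of 0.0421.

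Ciita, the class II coactivator, showed the largest rise among the 56 genes. It ran from 6.97 over 7.91 to 9.10 in the bled, from 6.11 over 6.46 to 6.67 in the contralateral and from 5.84 over 6.33 to 6.81 in the sham knees. The bled knees did not overlap with the other knees, and K2 was the lowest and K4 the highest of them. The difference from the contralateral side was 1.71 ± 0.19 (95% interval 1.32 to 2.09, 3.27-fold, adjusted p = 6.07e-09).

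Ifi30, the lysosomal thiol reductase that unfolds antigens for class II, ran from 9.98 over 10.70 to 11.00 in the bled and from 8.83 over 9.19 to 9.55 in the contralateral knees. There was no overlap, and the rise was 1.48 ± 0.10 (2.80-fold, adjusted p = 2.52e-13). Cd74, the invariant chain, ran from 12.56 over 13.02 to 13.29 and from 12.68 over 12.83 to 13.00 in the same groups, near the top of the range of the arrays (highest value 14.03). Its difference of 0.17 ± 0.08 was not called (adjusted p = 0.104), although 10 of 11 rats were higher on the bled side, and without the bled knee of K2 it was 0.22 (adjusted p = 0.0222). Ctss, the cathepsin that trims Cd74, had overlapping groups (11.03 over 11.44 to 11.79 against 11.12 over 11.43 to 11.80) and a difference of -0.02 ± 0.09 (95% interval -0.21 to 0.17).

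**Figure D2:**
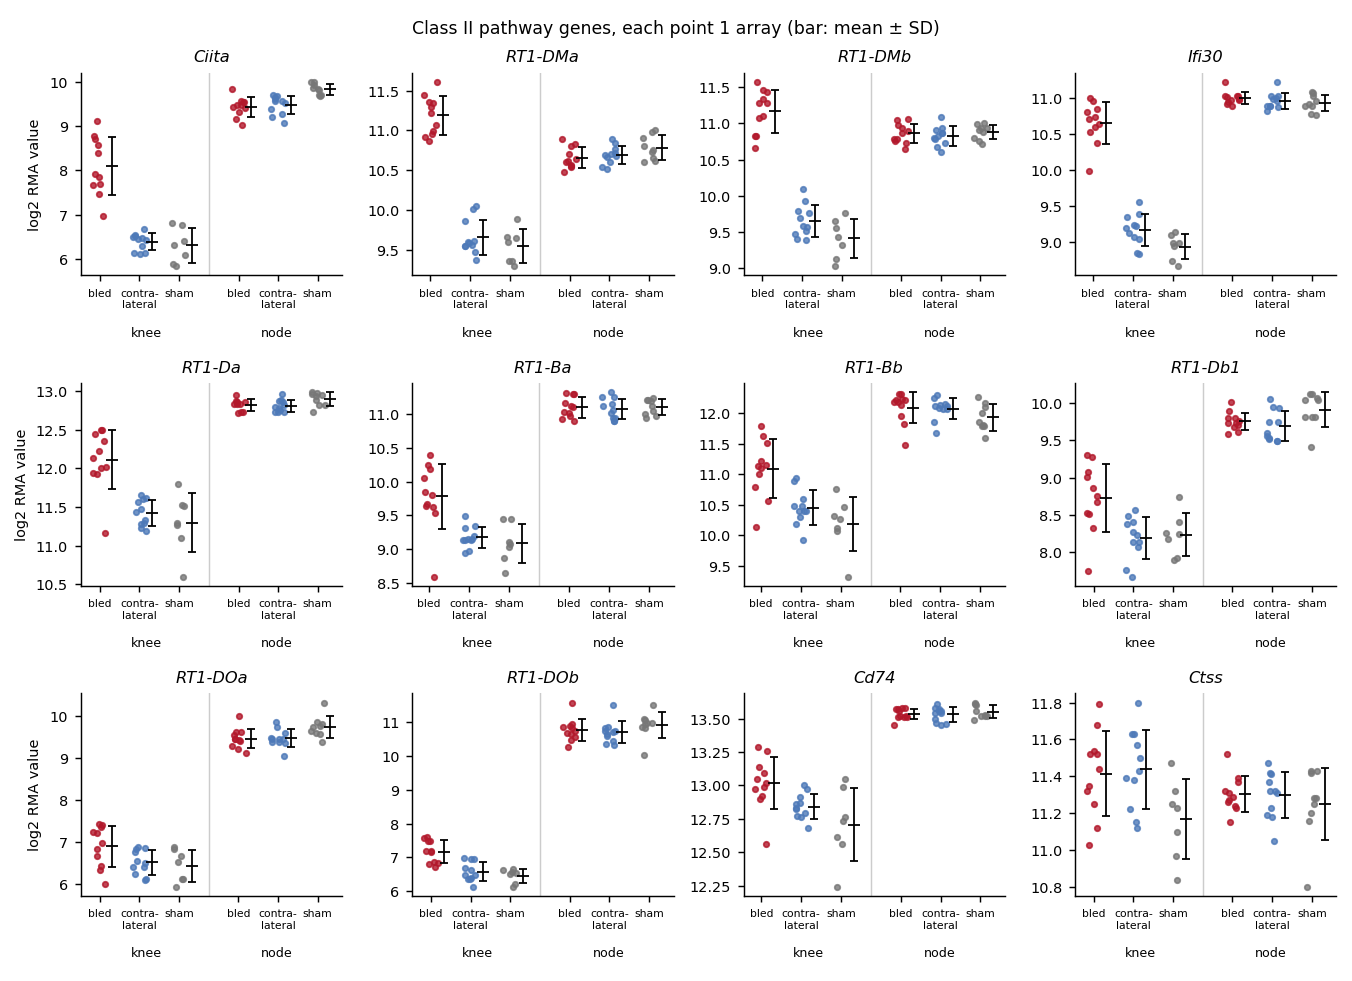
log2 RMA values of 12 class II pathway genes in each of the 6 groups (knee left, node right in each panel), 1 point per array, with mean ± SD beside the points. The bled knees lie above the other knees without overlap for Ciita, RT1-DMa, RT1-DMb and Ifi30, overlap partly for RT1-Da, RT1-Ba and RT1-Bb, and overlap widely for Ctss. In most panels the 3 node groups lie close together, and for Ciita the sham nodes are the high group.

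The bled knee of rat K2 was the lowest of the 11 for 7 of the 10 class II chains and for Ciita, Cd74 and Ifi30. It was also the lowest for all 5 immunoproteasome genes, 4 of 6 class I partners, Nlrc5, Cd1d1 and 6 of 29 class I chains. Its mean over the 10 class II chains was 8.30 against 8.63 to 9.22 in the others. The same array had the highest mean of the 6 neutrophil markers (10.38, the next at 9.53) and the lowest mean of the 9 macrophage and monocyte markers (9.42, the next at 9.81). Among the contralateral knees that of K10 stood out. Its neutrophil mean was 8.10 (the next at 6.13, the bled knees 7.46 to 10.38) and its T cell marker mean 6.43 (the next at 5.90). It was also the highest contralateral knee for Ciita, RT1-DMa, RT1-DMb and Ifi30. The part of these cells in the levels of either array was not tested.

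The 9 class I chains that were called moved the other way, 3 of them by over 1 unit. RT1-S3 ran from 7.51 over 8.03 to 8.85 in the bled, from 9.42 over 9.82 to 10.11 in the contralateral and from 8.68 over 9.16 to 10.15 in the sham knees. Every bled knee lay below every contralateral knee, by 1.70 ± 0.15 on average (95% interval of the difference -2.02 to -1.38, 3.24-fold, adjusted p = 1.44e-10). RT1-T24-4 (4.30 over 5.16 to 5.78 against 6.09 over 6.40 to 6.95) showed the same separation and fell by 1.37 ± 0.13, and the bled values lay mostly below the median probe set.

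RT1-T24-3, a neighbour in the same T24 group, ran from 7.50 over 7.93 to 8.82 in the bled and from 8.60 over 9.25 to 10.56 in the contralateral knees and fell by 1.30 ± 0.29 (adjusted p = 0.000413). Its sham knees (6.88 over 8.92 to 10.01) overlapped both. RT1-CE12 had the highest mean in the knee among the class I chains analysed. It ran from 9.00 over 9.25 to 10.09 in the bled and from 9.99 over 10.19 to 10.71 in the contralateral knees. Only the bled knee of K10 reached the contralateral range, and the fall was 0.94 ± 0.12 (95% interval of the difference -1.20 to -0.68, adjusted p = 2.19e-07), in 11 of 11 rats.

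The remaining called chains fell by less. They were RT1-CE11 (4.28 over 5.17 to 5.73 against 4.87 over 5.64 to 6.27, a difference of -0.58 ± 0.17), RT1-M3-1 (6.40 over 6.73 to 6.97 against 6.77 over 7.36 to 7.68, -0.54 ± 0.11), RT1-CE16 (-0.40 ± 0.12), RT1-T24-2 (-0.24 ± 0.07, a noncoding RNA in RefSeq) and RT1-T18 (-0.22 ± 0.07). RT1-CE4 had the highest mean in the node among the class I chains analysed. It ran from 7.86 over 8.27 to 8.89 in the bled and from 8.35 over 8.68 to 9.01 in the contralateral knees. It just missed the threshold (-0.34 ± 0.14, adjusted p = 0.0535), and was called under 8 of 10 other settings. RT1-M6-2 (-0.25, adjusted p = 0.0629) was called with the rat as a replicate block (adjusted p = 0.0469). The highest difference among the class I chains was that of RT1-N3 (0.26 ± 0.13, adjusted p = 0.138).

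The 5 called partners of class I fell by small amounts with little spread. B2m, the light chain of every class I molecule, ran from 12.96 over 13.06 to 13.23 in the bled, from 13.27 over 13.35 to 13.50 in the contralateral and from 13.13 over 13.27 to 13.47 in the sham knees. The bled and contralateral knees did not overlap, and the difference was -0.29 ± 0.05 (95% interval -0.38 to -0.19, adjusted p = 8.34e-06). Erap1, the peptide trimming protease of the endoplasmic reticulum, ran from 9.39 over 9.75 to 9.93 against 9.92 over 10.06 to 10.15 and fell by 0.34 ± 0.07. Tap2 (7.73 over 7.92 to 8.13 against 8.07 over 8.21 to 8.46) fell by 0.30 ± 0.07, and both were lower in 11 of 11 rats.

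Tapbp (tapasin, which holds class I at the transporter; 8.91 over 9.29 to 9.44 against 9.34 over 9.49 to 9.64) and its relative Tapbpl (7.10 over 7.40 to 7.57 against 7.45 over 7.62 to 7.78) fell by 0.24 ± 0.07 and 0.25 ± 0.06. Tap1, the other chain of the transporter, did not follow. It ran from 8.32 over 8.40 to 8.66 in the bled and from 7.94 over 8.33 to 8.75 in the contralateral knees and differed by 0.13 ± 0.10 (95% interval -0.08 to 0.33, adjusted p = 0.391). Cd1d1, which presents lipids to natural killer T cells, ran from 7.23 over 7.87 to 8.08 against 7.99 over 8.13 to 8.49 and fell by 0.33 ± 0.08 (adjusted p = 0.00214).

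The immunoproteasome was split. Psmb10, 1 of its 3 catalytic subunits, ran from 8.28 over 8.92 to 9.08 in the bled and from 8.04 over 8.29 to 8.84 in the contralateral knees and rose by 0.52 ± 0.09 (adjusted p = 2.9e-05) in 10 of 11 rats. Psme2, a subunit of the activator cap PA28, ran from 10.04 over 10.41 to 10.53 against 9.59 over 10.02 to 10.15 and rose by 0.38 ± 0.09 in all 11. The other catalytic subunits, Psmb8 (8.09 over 8.50 to 9.37 against 8.03 over 8.39 to 8.95) and Psmb9 (8.31 over 8.72 to 8.91 against 8.36 over 8.61 to 8.85), overlapped widely and differed by 0.16 ± 0.17 and 0.07 ± 0.08. Psme1, the partner of Psme2, differed by -0.13 ± 0.08. Nlrc5, the class I coactivator, ran from 6.90 over 7.26 to 7.61 against 6.59 over 6.99 to 7.56 and was not called (0.23 ± 0.11, adjusted p = 0.104). With the rat as a fixed block, which compares the knees within animals, it was (adjusted p = 0.0444; 0.0835 with a random block), as it was with array weights (0.28, adjusted p = 0.0265) and without the contralateral knee of K10 (0.28, adjusted p = 0.0307).

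**Figure D3:**
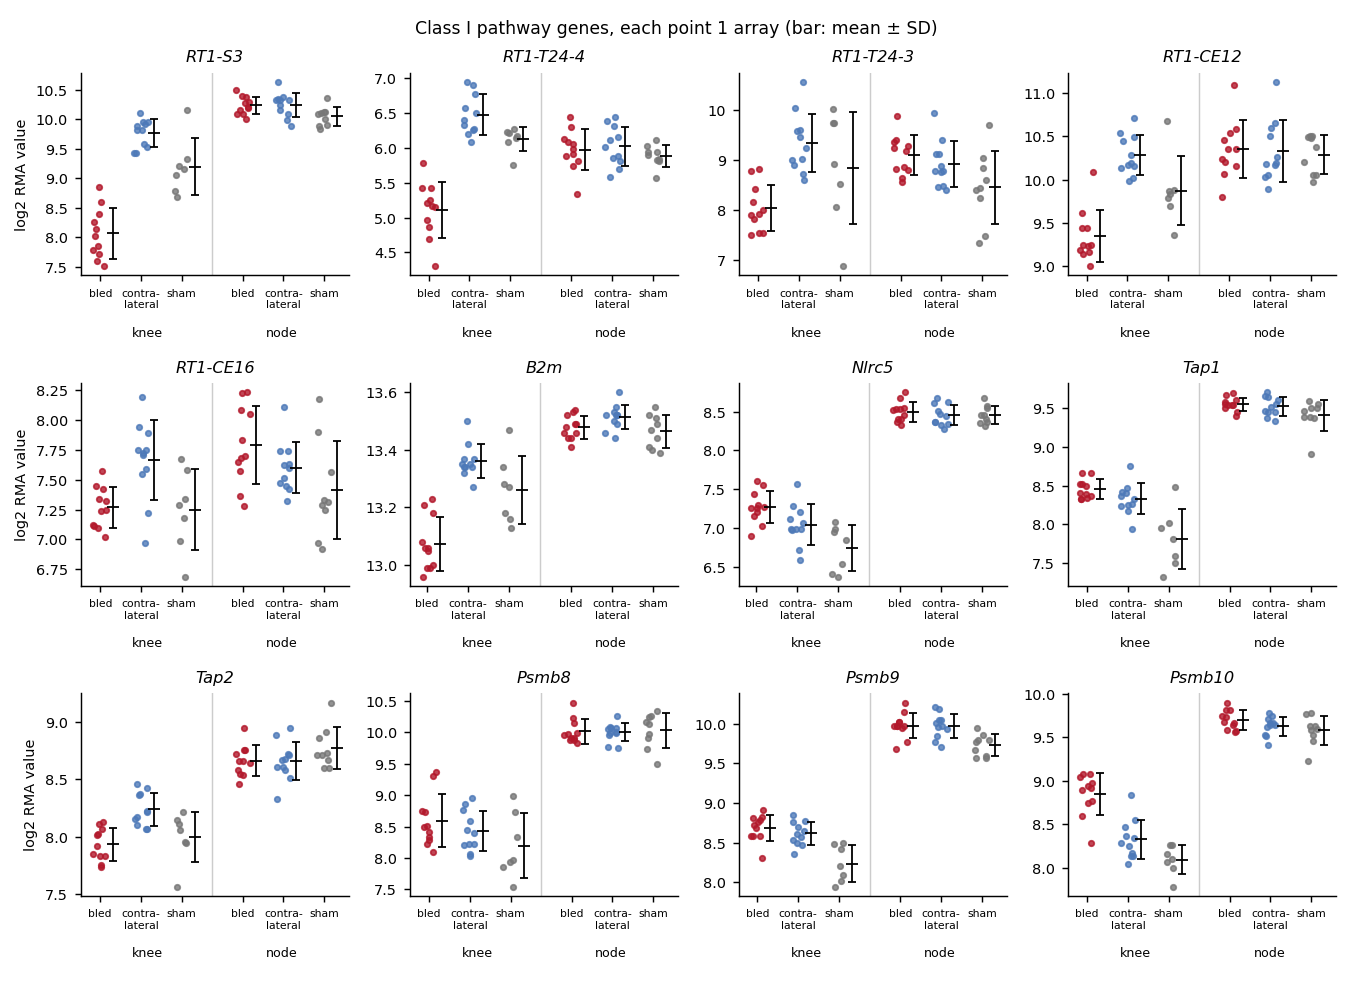
log2 RMA values of 12 class I pathway genes in each of the 6 groups, 1 point per array, with mean ± SD beside the points. The bled knees lie below the contralateral knees without overlap for RT1-S3, RT1-T24-4 and B2m; for Tap1 and Psmb9 the sham knees are the low group and the bled and contralateral knees overlap.

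**Figure D4:**
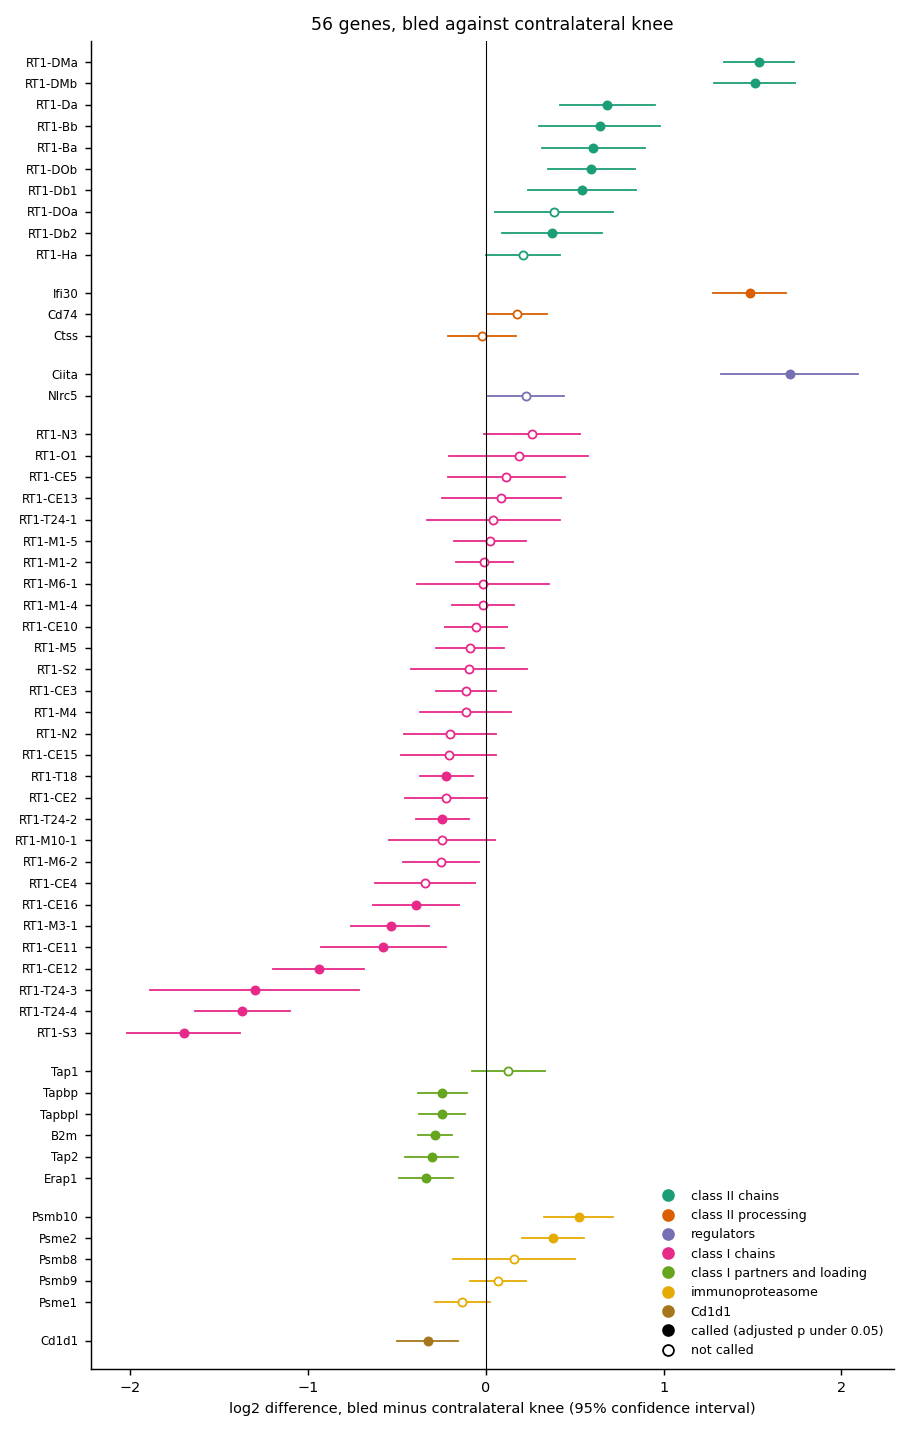
log2 difference of the bled minus the contralateral knee (n = 11 each) with its 95% confidence interval for all 56 genes, grouped by role and ordered by size; filled points were called (adjusted p under 0.05). The class II chains lie to the right of 0 (0.21 to 1.54), and the class I chains run from 0.26 down to -1.70.

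Against the sham knees the class II chains were again higher, and class I genes were called in both directions. The bled knees take part in this comparison too, so it does not repeat the previous one independently. Of the 56 genes 19 were higher and 10 lower, beside 19.9% and 18.8% of all probe sets, and centring the arrays on their medians gave 22 higher and 6 lower. All 10 class II chains were called higher (median difference 0.70), as were Ciita (1.79 ± 0.21), Ifi30 (1.72 ± 0.11), Cd74 (0.31 ± 0.09; sham 12.24 over 12.73 to 13.05) and Nlrc5 (0.53 ± 0.12; sham 6.37 over 6.84 to 7.08). RT1-DMb (1.75 ± 0.13) and RT1-DMa (1.65 ± 0.11) showed the largest differences among the chains, and no sham knee reached the bled range for either. RT1-Bb followed with 0.91 ± 0.19, RT1-Da with 0.81 ± 0.15, RT1-DOb with 0.71 ± 0.14 and RT1-Ba with 0.69 ± 0.16. The call of RT1-DOa (0.46 ± 0.18, adjusted p = 0.0477) was lost without the sham knee of C5 and without each of 16 other arrays, with the rat as a replicate block (adjusted p = 0.051), with array weights (adjusted p = 0.0747) and with only the compared groups fitted (adjusted p = 0.0863). The call of RT1-Db1 was lost under quantile normalization within the tissue (0.39, adjusted p = 0.0646), and those of RT1-Db2 and RT1-Ha without the sham knees of C6 (adjusted p = 0.0652) and C9 (adjusted p = 0.056).

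Of the 29 class I chains 8 (27.6%) were called lower than in the sham knees, beside 18.8% of all probe sets, and some of these calls were unstable. RT1-S3 (-1.13 ± 0.18), RT1-T24-4 (-1.02 ± 0.15) and RT1-CE12 (-0.53 ± 0.14) were lower. RT1-T24-2 was lower by 0.49 on average (5.64 over 5.97 to 6.28 against 6.20 over 6.46 to 6.74), RT1-M6-2 differed by -0.37 ± 0.12 (4.66 over 5.03 to 5.55 against 5.08 over 5.33 to 6.07) and the dim RT1-M1-4 by -0.36 ± 0.10. RT1-T18 and RT1-M6-2 were no longer called without the sham knee of C5, which had the highest sham value of both (6.48 for RT1-T18, the next at 6.06), and RT1-T18 also lost its call under both other scalings and with array weights (adjusted p up to 0.108). The call of RT1-M3-1 was lost without any 1 of 16 arrays, C5 among them (adjusted p up to 0.122), and under both other scalings (up to 0.155). RT1-N3 was the 1 class I chain called higher (6.70 over 7.12 to 7.42 against 6.06 over 6.38 to 7.37, 0.53 ± 0.15).

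B2m was lower than in sham (-0.19 ± 0.05), a call that was lost under both other scalings (adjusted p up to 0.191), and Tapbpl was lower by 0.18 on average with an adjusted p of 0.049 that rose above 0.05 without any 1 of 21 arrays, that of C5 among them. Tap1 (0.65 ± 0.11), Psmb10 (0.76 ± 0.11), Psmb9 (0.45 ± 0.09) and Psme2 (0.41 ± 0.10) were higher. Tap2 (-0.06 ± 0.08), Erap1 (-0.10 ± 0.08), Cd1d1 (-0.11 ± 0.10) and Psmb8 (0.40 ± 0.19, adjusted p = 0.0996) were not called. Nor were Tapbp (mean 9.252 in the bled against 9.077 in the sham knees), RT1-CE16 (7.267 against 7.249), RT1-CE11 (5.085 against 5.191) and RT1-T24-3 (8.041 against 8.84). All of these except Psmb8 were called lower against the contralateral knee. Several of these lay near the threshold. Erap1 was called lower without the sham knee of C5 (-0.20, adjusted p = 0.0236) and under quantile normalization within the tissue. Psmb8 was called higher without the sham knee of C1 (adjusted p = 0.0489) or C3 (adjusted p = 0.0246) and with each array centred on its median. Without the sham knee of C3, Tapbp was called higher (0.22, adjusted p = 0.0237), as it was without sham C2 or bled K2, K3 or K4. Without the sham knee of C7, RT1-T24-3 was called lower (-1.13, adjusted p = 0.00187). The same held without sham C6, bled K1, K6 or K10, or contralateral K6.

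The unbled contralateral knee differed from the sham knee in 3 of the 56 genes, all class I loading or proteasome genes and all higher (0.984% of all probe sets were called higher and 0.831% lower). Tap1 ran from 7.94 over 8.33 to 8.75 in the contralateral and from 7.32 over 7.81 to 8.48 in the sham knees, with overlap, a difference of 0.52 ± 0.11 (95% interval 0.29 to 0.75, adjusted p = 0.0112). Tapbp (9.34 over 9.49 to 9.64 against 8.89 over 9.01 to 9.35) overlapped by a single sham array and differed by 0.42 ± 0.08 (adjusted p = 0.0017). Psmb9 (8.36 over 8.61 to 8.85 against 7.94 over 8.20 to 8.50) differed by 0.38 ± 0.09 (adjusted p = 0.0178) and was not called without the sham knee of C5 or of C9 (adjusted p up to 0.0581). None of the 10 class II chains was called (differences -0.04 to 0.27). Among the class I chains none was called either, with differences from -0.34 (RT1-M1-4) to 0.57 (RT1-S3, adjusted p = 0.0919). The count was 1, that of Tapbp, when only these 2 groups were fitted and ran from 2 to 6 when 1 array was left out (5 without the contralateral knee of K10 and 6 without the sham knee of C3).

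In the nodes none of the 56 genes differed between the bled and the contralateral side by limma, as none of the 36685 probe sets did (0% called in either direction). At an unadjusted p under 0.05 there was 1 gene, the dim RT1-T24-1 (-0.31 ± 0.14), named after its value was seen. The difference of the class II chains lay between -0.14 and 0.07 and that of the class I partners between -0.04 and 0.07. RT1-DMa, which separated the knees, had a median of 10.62 in the nodes of the bled side and 10.69 in the contralateral nodes.

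Against the sham nodes the same 4 genes were called on both sides, which share the 9 sham arrays: Tapbp and Psmb9 higher, Ciita and RT1-Ha lower. The background was 1.91% higher and 2.34% lower for the bled side and 2.22% and 2.81% for the contralateral side. Ciita ran from 9.01 over 9.46 to 9.83 on the bled, from 9.06 over 9.56 to 9.70 on the contralateral side and from 9.68 over 9.82 to 9.99 in sham, differences of -0.40 ± 0.09 (adjusted p = 0.00834) and -0.36 ± 0.09 (adjusted p = 0.015). The sham nodes were the high group and overlapped both others. This was the 1 call that held in both comparisons without any 1 array and under every other setting.

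Tapbp ran from 10.58 over 10.66 to 10.94 on the bled, from 10.47 over 10.66 to 10.93 on the contralateral side and from 10.04 over 10.50 to 10.64 in sham (0.24 ± 0.06 and 0.22 ± 0.06). Psmb9 ran from 9.68 over 9.98 to 10.27, from 9.71 over 9.98 to 10.21 and from 9.57 over 9.77 to 9.95 in the same groups (0.25 ± 0.07 and 0.24 ± 0.07). Neither was called without the sham nodes of C2 and C9. RT1-Ha, a class II alpha chain, ran from 7.58 over 8.34 to 9.15, from 7.92 over 8.41 to 8.83 and from 8.21 over 8.88 to 9.45 (-0.51 ± 0.15 and -0.53 ± 0.15), with adjusted p of 0.049 and 0.0402 that rose above 0.05 when each array was centred on its median and without each of 23 and 12 arrays. Of 7 adipocyte markers 2 were called higher on the bled side and 5 on the contralateral side than in sham, with list means of 7.38 to 9.48, 8.63 to 9.36 and 7.29 to 9.09 per array. Of 9 macrophage and monocyte markers 3 were higher on each side than in sham and of 8 dendritic cell markers 2 were, while 1 of 8 synovial lining and fibroblast markers was higher on the bled and 3 on the contralateral side. Of 6 B cell, 7 T cell and 6 neutrophil markers none was called. The part of these cells in the 4 differences was not tested.

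The side difference of the knee exceeded that of the node for the genes that led the knee comparison. In the model of all 60 arrays 12 genes had a higher and 13 a lower side difference in the knee than in the node (15.5% and 12.4% of all probe sets). Of the class II chains 8 of 10 were called, among them RT1-DMa (1.57 ± 0.11) and RT1-DMb (1.48 ± 0.12), besides Ciita (1.75 ± 0.21) and Ifi30 (1.45 ± 0.11). Of the class I chains 7 of 29 were called, all lower, with RT1-S3 (-1.69 ± 0.17) and RT1-T24-3 (-1.47 ± 0.37) at the bottom. B2m was called too (-0.25 ± 0.05), as were Tap2 (-0.31 ± 0.10) and Psmb10 (0.45 ± 0.11). Of the 25 calls 18 held without any 1 array and in every other setting run.

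Several class I genes had levels that differed between rats and recurred in the samples of a rat. The intraclass correlation, the share of the variance left after removing group means that lies between rats, was computed over the 4 samples of each of the 11 bled rats. Its median was 0.21 over the 56 genes and 0.05 over all probe sets, and it exceeded 0.5 in 7 of the 56 (12.5%) and in 1.46% of all probe sets (2.6% of those with a mean above the median). The 7 were RT1-CE5 (0.75), RT1-CE12 (0.73), Psmb8 (0.66), RT1-T24-3 (0.61), RT1-M6-2 (0.59), RT1-DOb (0.53) and RT1-N2 (0.51). These values describe the animals, with no test, and the relatedness of the rats is not given in the labels.

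Single rats stood out in all their samples. Rat K10 had the highest RT1-CE5 of its group in both knees and both nodes (6.31, 6.72, 7.37 and 7.10, the next rats at 5.83, 5.82, 5.92 and 5.75). It was also the highest of its group for RT1-CE12 and RT1-DOb in all 4 samples. Rat K6 had the highest RT1-T24-3 in all 4 samples (8.82, 10.56, 9.88 and 9.94). For Psmb8, K7 and K9 were the upper pair in both knees and in the node of the bled side (bled knees 9.31 and 9.37, the median at 8.50).

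Levels also differed between sham rats. RT1-N2 ran from 6.54 (C7) to 9.36 (C1) in the sham nodes and C1 was also the highest sham knee (8.16). The SD in the node was 0.97 in sham and 0.25 on the bled side. RT1-T24-3 was highest in C1 and lowest in C7 in both sham tissues (10.01 and 6.88 in the knee, 9.70 and 7.35 in the node). Over the 7 sham rats with both tissues the intraclass correlation of the same 7 genes was 0.89 for RT1-CE5, 0.84 for RT1-T24-3, 0.66 for Psmb8, 0.59 for RT1-N2, 0.32 for RT1-M6-2, 0.27 for RT1-CE12 and -0.05 for RT1-DOb.

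**Figure D5:**
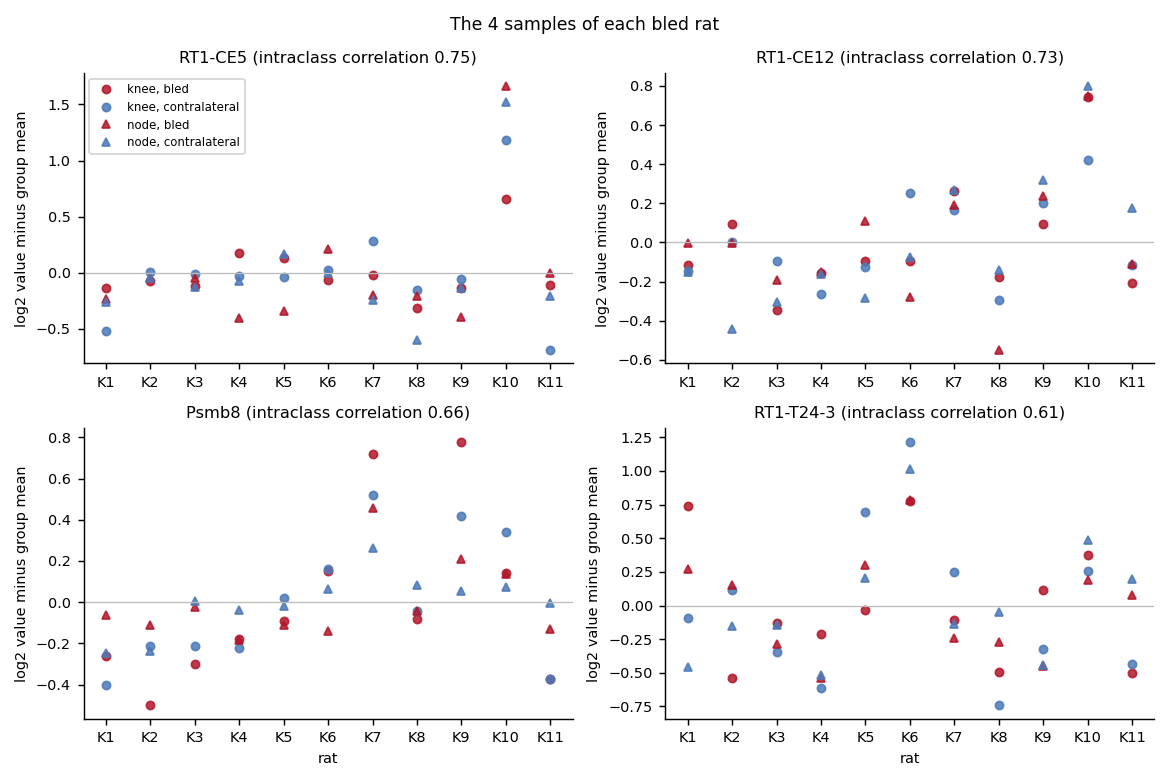
log2 value minus group mean for the 4 samples of each of the 11 bled rats (circles knee, triangles node; red bled side, blue contralateral side) for RT1-CE5, RT1-CE12, Psmb8 and RT1-T24-3. All 4 points of K10 lie at the top for RT1-CE5 and RT1-CE12, and all 4 points of K6 lie at the top for RT1-T24-3.

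Over the 29 knee arrays, with group means removed, the median correlation was 0.36 over the 45 pairs of class II chains, 0.39 over the 15 pairs of class I partners, 0.14 over the 78 pairs of the 13 class I chains with a knee mean above the median probe set, 0.02 between these and the class II chains and 0.00 over all pairs of probe sets. Single class II pairs ran from -0.14 to 0.91. It was 0.52 over the 10 pairs of immunoproteasome genes. In the node it was 0.26 for the class II chains (-0.60 to 0.86), 0.19 for the class I partners and 0.13 for the immunoproteasome genes. Ciita had a median correlation of 0.69 with the 10 class II chains in the knee (0.07 to 0.84) and 0.43 in the node (0.06 to 0.77). These pairs share arrays and cell content and are given as a description.

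Other genes of these pathways are set beside the 19.5% of all probe sets called higher and 15.2% called lower. In the bled against the contralateral knee, all 4 folding partners of class I in the endoplasmic reticulum were higher (Hspa5 0.84 ± 0.10, Calr 0.56 ± 0.06, Canx 0.46 ± 0.04), as were all 3 constitutive catalytic proteasome subunits measured (Psmb5 0.57 ± 0.08, Psmb7 0.52 ± 0.07, Psmb6 0.51 ± 0.11). Of 6 endosomal proteases 4 were higher and 1 lower, with Ctsc at 1.66 ± 0.08, Lgmn at 1.20 ± 0.09 and Ctsd at 0.69 ± 0.05, and Ctsh lower (-0.34 ± 0.06). Marchf1, the ubiquitin ligase that removes class II from the surface, was higher (1.52 ± 0.14), and Marchf8 was not called.

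Of 9 genes of interferon gamma signalling 6 were higher and 2 lower, again beside 19.5% and 15.2% of all probe sets. Irf8 (1.76 ± 0.13), Jak2 (1.42 ± 0.08) and Ifngr2 (1.20 ± 0.06), a receptor chain, showed the largest differences, while Irf1, a factor that class I promoters respond to, fell by 0.39 ± 0.08 and Jak1 by 0.18 ± 0.06. Ifng itself was dim and not called (0.08 ± 0.07; means 4.75 and 4.67). Of 7 factors that bind the X and Y boxes 1 was higher (Creb1, 0.34 ± 0.07) and 1 lower (Rfx5, -0.25 ± 0.08), shares close to those of all probe sets. Cd8a (2.06 ± 0.12) and Cd8b (2.53 ± 0.12), the chains of the coreceptor for class I, rose, and Cd4, the coreceptor for class II, which rat macrophages also carry, fell by 0.95 ± 0.12.

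Several marker lists of other cell types also differed between these knees. In the bled against the contralateral knee 6 of 6 neutrophil, 7 of 7 T cell, 6 of 8 dendritic cell and 5 of 9 macrophage and monocyte markers were higher, and 2 dendritic cell and 3 macrophage markers were lower (all probe sets 19.5% higher and 15.2% lower). Of the plasmacytoid dendritic cell list only Tcf4 and Irf7 were measured, not Siglech, and both were lower (median difference -0.97). Their mean was higher in the sham knees than in the sham nodes (medians 9.82 and 9.14). Whether the pair follows these cells here was not tested. Of 6 B cell markers 3 were higher, while Cd79a, Cd79b and Ms4a1 were not called and the list mean (6.64 to 7.11 in the bled and 6.11 to 6.85 in the contralateral knees) stayed below that of the nodes (10.61 to 11.27). All 7 adipocyte, all 4 endothelial and 7 of 8 synovial lining and fibroblast markers were lower. The adipocyte list mean was 8.50 to 10.10 in the bled and 11.19 to 11.88 in the contralateral knees, and the dendritic cell mean 7.26 to 7.85 and 6.59 to 6.88. The skeletal muscle mean ranged widely in both (6.49 to 12.58 and 6.75 to 13.02). Of 5 natural killer and cytotoxic cell markers 1 was higher and 0 lower. Of 6 follicular dendritic cell and node stroma markers 1 was higher and 1 lower. The part of these cell types in the class I and class II differences was not tested.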

How the data were processed

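Total RNA of 29 knee and 31 popliteal node samples was hybridised to Affymetrix rat gene arrays. The authors deposited log2 values. The submitters' processing notes name RMA and, as software, Affymetrix Expression Console 1.4.46. Whether both tissues were normalized together is not given in the sources used here. RMA quantile normalization, where joint, would level shifts shared by most genes. Array signals carry no read depth, so the number of arrays limits the precision.

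Groups came from the sample titles. limma 3.58.1 (R 4.3.3) was fitted to all 36685 probe sets without a filter, with the 3 groups of a tissue in a model and all 60 arrays for the knee minus node contrast, and p-values were adjusted by Benjamini-Hochberg. The fit was run on simulated arrays with independent noise and few changed probe sets. That simulation does not cover samples that share a rat or changes in many genes. Errors are SE of the difference unless SD is written. Replicates are rats, so that the numbers pair samples of an animal. The main fit had no block, so its SE, intervals and p-values treat samples of the same rat as independent. The knee minus node contrast also used a shared estimate of the spread for both tissues. The correlation of same-rat residuals was 0.0782 in the knee and 0.2656 in the node, and a replicate block was an alternative. Values per group were given for a set list of genes and for the up to 6 called members per list with the largest difference. Members and lists were chosen with earlier results of these data known. Scan batches are not given. Promoters came from RefSeq (GRCr8) through gene identifiers, which matched for all 56 genes.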

Additional observations from a re-analysis of the deposited data

Results flagged for a closer look

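In groups of 7 sham knees and 9 sham nodes, 16 of 112 values at the edge of a group stood apart by Dixon's criterion, which chance meets in about 1 in 20 groups. In the sham knees, C3 was high for RT1-CE12 (10.68, the others 9.36 to 9.88) and C1 for RT1-CE5 (6.60, the others 5.37 to 5.74). C5 was high for RT1-M1-4 (4.59), RT1-M4 (5.14) and RT1-T18 (6.48). C9 was low for RT1-T24-4 (5.76) and RT1-Ha (4.67), and C7 for Tap2 (7.56). In the sham nodes, C9 was low for Tap1 (8.91, the others 9.38 to 9.60), Tapbp (10.04), RT1-DOb (10.02) and Ctss (10.80) and high for RT1-M5 (5.17). C2 was high for RT1-T24-2 (7.14) and low for RT1-Db1 (9.41), and C8 was high for RT1-M6-1 (4.94). The knee array of C5 and the node arrays of C2 and C9 gave 10 of the 16 values.

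The side difference of the knee differed from that of the node in 25 genes by the limma contrast of both. It was higher for Ciita (1.75), RT1-DMa (1.57), RT1-DMb (1.48), Ifi30 (1.45), RT1-Da (0.67), RT1-Bb (0.62), RT1-Ba (0.58), RT1-DOb (0.53), RT1-Db2 (0.52), RT1-Db1 (0.48), Psmb10 (0.45) and Psme2 (0.37). It was lower for RT1-S3 (-1.69), RT1-T24-3 (-1.47), RT1-T24-4 (-1.32), RT1-CE12 (-0.96), RT1-CE11 (-0.60), RT1-CE16 (-0.58), RT1-M3-1 (-0.52), Tapbpl (-0.32), Erap1 (-0.31), Tap2 (-0.31), Tapbp (-0.27), Cd1d1 (-0.27) and B2m (-0.25).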

How the results depend on the processing

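With the rat as a replicate block the members called were 29 for bled minus contralateral knee (32 with a fixed block), 29 for bled minus sham knee, 3 for contralateral minus sham knee, 0, 4 and 4 in the nodes and 25 for knee minus node. The block changed none of these counts by over 1.5 times. Over the other settings the first count ran from 27 to 33, the second from 25 to 30 and the last from 22 to 26. Fitting only the compared groups gave 1 for contralateral minus sham knee, 1 for bled minus sham node and 2 for contralateral minus sham node, and leaving out the sham nodes of C2 and C9 gave 1 for bled minus sham node. These fits use fewer samples. Without 1 array the counts ran from 26 to 31, 25 to 30 and 2 to 6 in the knee, from 0 to 0, 1 to 5 and 1 to 4 in the node and from 22 to 27 for knee minus node. Of the values of all members under other settings, 3373 kept their side of the threshold, 44 lost the call and 52 gained it. Direction was compared only where a value was called in the main fit or in the other setting, and 0 of those reversed. Choosing the probe set with the lowest mean changed nothing, since each gene has 1. Dim probe sets limit the class I chains most.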
